A study of Homo sapiens with 6 samples.

Results

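The 31 genes described here encode the subunits of the SWI/SNF chromatin remodelling complexes, the protein machine of which DPF3a is itself a part. They were listed by name, from the BAF, PBAF and ncBAF forms of the complex, and all 31 were found among the 20033 protein-coding genes of chromosomes 1 to 22, X and Y in GENCODE 44 on hg38. A peak was assigned to a gene when its summit, the position of highest read pileup, lay in the gene or up to 5000 bp upstream of it. Promoter peaks had a summit from 1000 bp upstream to 100 bp downstream of any annotated transcript start of the gene, and summits in coding exons of the canonical transcript were counted apart. The rule uses gene names and no peak value.

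SWI/SNF complexes use the ATPase BRM (SMARCA2) or BRG1 (SMARCA4) to slide or evict nucleosomes, with an actin-related module. In the BAF and PBAF forms the scaffold has SMARCB1, SMARCC, SMARCD and SMARCE1 subunits. The BAF form is defined by ARID1A or ARID1B and a DPF family protein, the PBAF form by ARID2, PBRM1, PHF10 and BRD7, and the ncBAF form by BRD9 with BICRA or BICRAL. PBRM1 and ARID1A are among the genes recurrently mutated in clear cell renal cell carcinoma. Some paralogous subunits, such as ARID1A and ARID1B, exclude each other within a complex.

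The binding data are from ChIP-seq of 786-O, an established human clear cell renal carcinoma line, with 2 libraries for each of 3 factors and 1 peak list per factor made from both libraries. DPF3a, the short isoform of the histone reader DPF3, was precipitated through an HA tag from cells overexpressing HA-tagged DPF3a, after fixation with DSG and formaldehyde. SMAD4, the shared transducer of TGF-β signalling, and p300, a histone acetyltransferase, were precipitated with antibodies to the proteins from 786-O cells fixed with formaldehyde alone, and the labels do not say whether those cells carried HA-DPF3a. No replicate spread can be given, so every count below is a description with counting error only, intervals are 95% Wilson intervals, fold enrichment is the deposited ratio of the pileup at the summit to its local background, and no expression was measured. The lowest local background recovered per list, in the order DPF3a, SMAD4, p300, was 1.17, 2.25 and 2.05 reads, so the lists differ in depth as well as in antibody and fixation, and folds of different lists are set side by side without a test.

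Most subunit genes carried peaks of every factor. In the DPF3a list 27 of 31 genes had a peak (87.1%, 71.1 to 94.9), against 65.8% of all protein-coding genes. In the SMAD4 list 29 of 31 had one (93.5%, 79.3 to 98.2), against 72.3%, and in the p300 list 21 of 31 (67.7%, 50.1 to 81.4), against 51.6%. Peaks of all 3 lists were present at 20 genes, peaks of DPF3a and SMAD4 without p300 at 7 (BCL7A, BICRA, BRD7, DPF2, DPF3, SMARCD1 and SMARCD2), and SMAD4 peaks without DPF3a at BCL11A and BCL11B. These combinations were not counted over all protein-coding genes, so whether they are unusual cannot be said. SMARCB1, the scaffold subunit lost in rhabdoid tumours, and ACTL6B, the actin-related subunit of neuronal complexes, had no peak in any list.

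Promoter summits were counted next. SMAD4 summits lay in a promoter of 28 genes (90.3%, 75.1 to 96.7), against 57.2% of protein-coding genes, DPF3a summits in a promoter of 21 (67.7%, 50.1 to 81.4), against 41.7%, and p300 summits in a promoter of 18 (58.1%, 40.8 to 73.6), against 32.9%. All 3 factors had a promoter summit at 15 genes, a combination that was not counted over all protein-coding genes. The order of DPF3a and p300 depended on the length of the lists. Each list was then cut to as many peaks of highest score as the p300 list holds. In these cut lists DPF3a had a promoter summit at 3, SMAD4 at 22 and p300 at 18 of the genes. The promoter share of all protein-coding genes was not counted for the cut lists. Any peak was at 10, 27 and 21 genes, against 30.2%, 58.9% and 51.6% of protein-coding genes. The DPF3a share, 32.3%, was thus near that of all genes. In the full lists SMAD4 alone had a promoter summit at BCL7A, BCL11A, BCL11B, BICRA, BICRAL and DPF3, and DPF3a and p300 without SMAD4 had one at ACTL6A, where the SMAD4 summit was 159 bp downstream of the canonical start. The shares were close to those of 50 genes of the ISWI, CHD and INO80 families of remodellers, of which 35 had a DPF3a, 43 a SMAD4 and 28 a p300 promoter summit, and 43, 49 and 37 had any peak of these factors.

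The subunit genes were longer than most, with a median window of 56079 bp against 32471 bp for all protein-coding genes. The shares were therefore also set beside genes of the same length class. Among 8 windows under 30 kb, 7 held a DPF3a peak (87.5%, 52.9 to 97.8), against 48.7% of protein-coding genes of that class. Within it the subunit windows were still longer, with a median of 24564.5 bp against 14170.5 bp, so length is not matched there. Among windows of 30 to 100 kb, 12 of 13 subunit genes had a DPF3a peak against 77.0% of protein-coding genes, and 10 of 13 had a p300 peak against 62.2%. Among windows over 100 kb, 8 of 10 had a DPF3a peak against 88.8%, and 7 of 10 a p300 peak against 73.9%. The share with a DPF3a peak was above that of all genes in the windows under 100 kb and below it in the longest ones, where 8 of 10 has an interval of 49.0 to 94.3%.

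**Figure D1:**
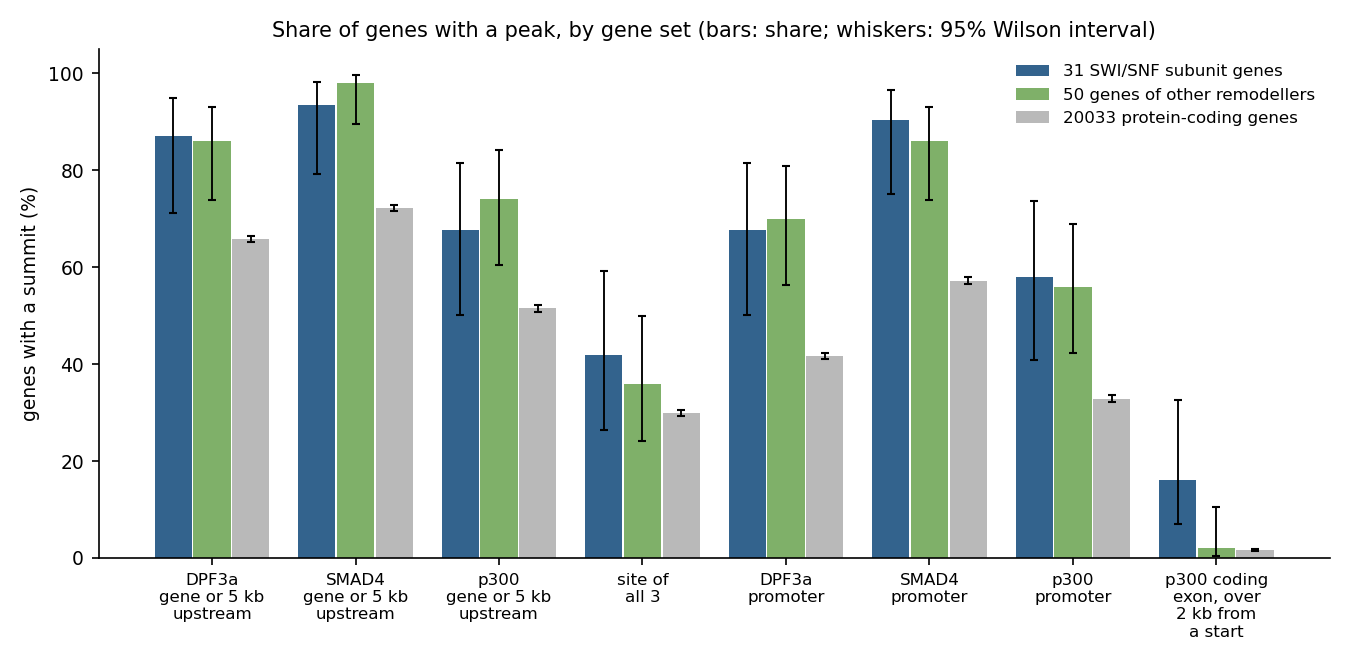
Share of genes, in percent, with a summit of the named list in the gene or 5 kb upstream, at a promoter, in a site of all 3 factors, or, for p300 alone, in a coding exon over 2 kb from a start. Bars give the share and whiskers the 95% Wilson interval; in the 7 other groups of bars both the subunit genes and the genes of other remodellers are above all protein-coding genes, and 5 of 31 subunit genes and 1 of 50 other remodeller genes have a far coding-exon summit of p300.

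The 31 genes held 75 DPF3a, 86 SMAD4 and 60 p300 peaks, that is 2.64, 3.03 and 2.11 per 100 kb of window, against 2.45, 2.39 and 1.19 over all protein-coding genes. DPF3a peaks were mostly intronic: 41 of 75 lay in introns outside promoters and 26 at promoters. SMAD4 peaks were split between 39 at promoters and 36 in introns outside them. Of the 60 p300 peaks 29 lay at promoters, 17 in coding exons outside promoters and 11 in introns. The median fold enrichment at subunit genes was slightly below that of each whole list, at 6.19 for DPF3a (6.70 over its whole list), 6.07 for SMAD4 (6.30) and 4.63 for p300 (4.92).

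**Figure D2:**
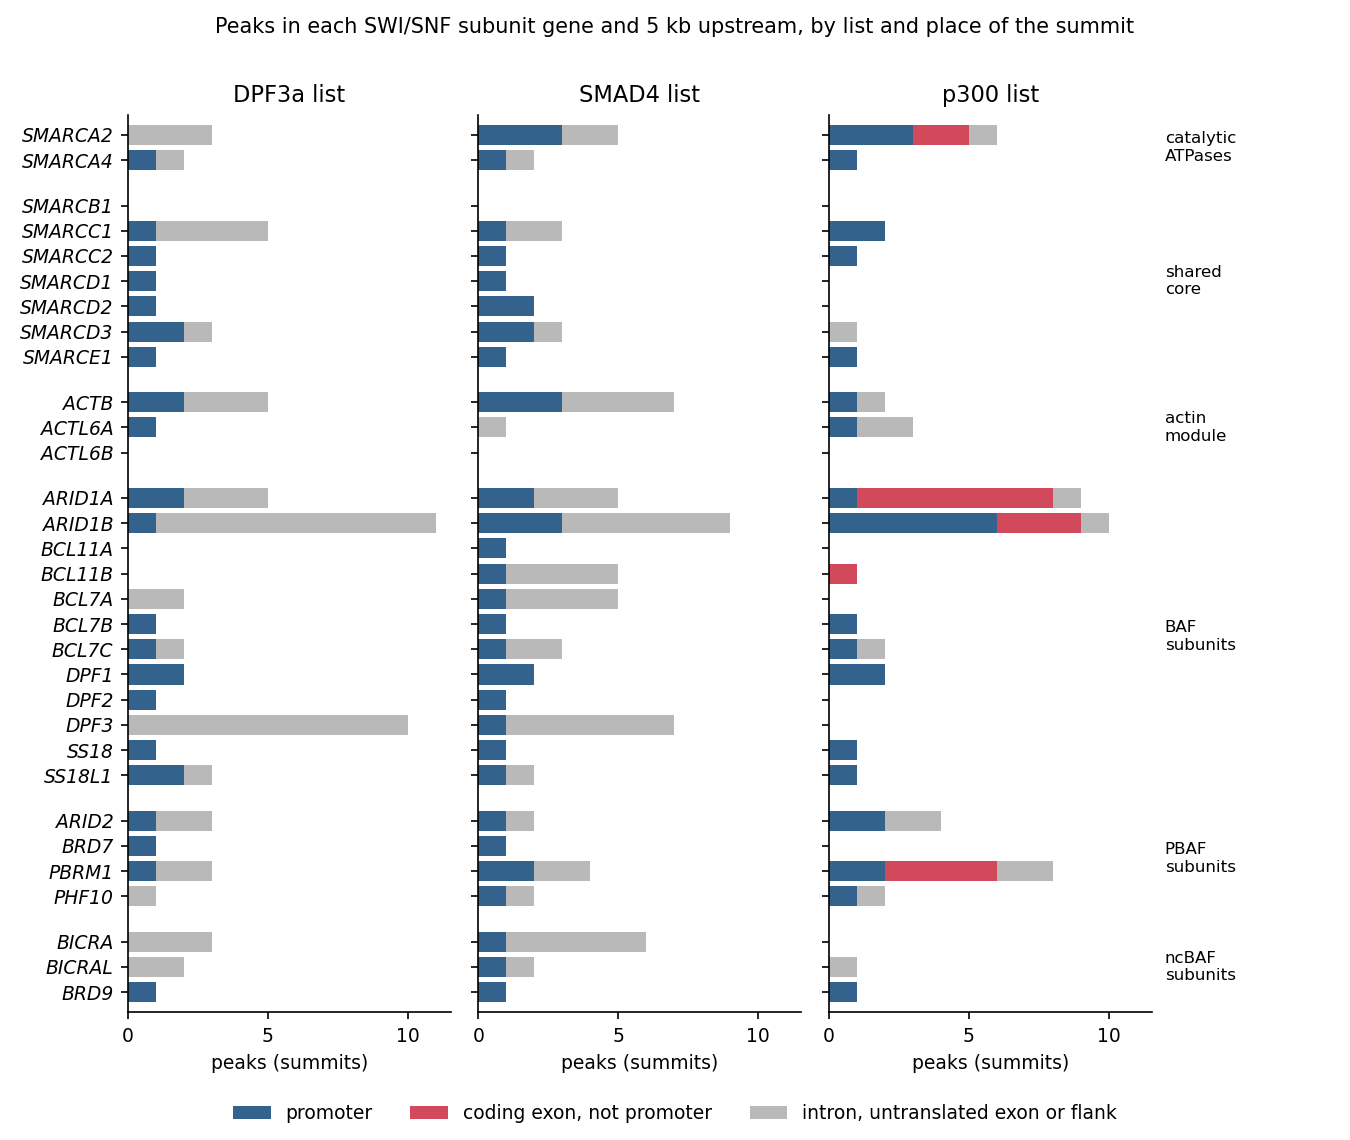
Number of peaks (summits) per subunit gene and its 5 kb upstream in each list, genes grouped by their place in the complex. Blue is promoter, red is coding exon outside promoters and grey is everything else; DPF3 has 10 DPF3a and 7 SMAD4 peaks without p300, ARID1B has 11, 9 and 10, and red appears in the p300 list at SMARCA2, ARID1A, ARID1B, BCL11B and PBRM1.

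Among the catalytic genes, both had peaks in all lists. SMARCA4 had a DPF3a summit 16 bp and a SMAD4 summit 6 bp downstream of its canonical start, at 5.93-fold and 8.70-fold, and a p300 summit 452 bp upstream at 3.17-fold. SMARCA2, which is silenced in several tumour types, had no DPF3a promoter summit. Its 3 DPF3a peaks lay in introns 5, 27 and 28 at 6.33-fold to 7.36-fold, and those in introns 5 and 27 were shared with SMAD4. Its SMAD4 peak at the canonical start was 4.69-fold and touched no other list.

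In the core group, that is the SMARCB1, SMARCC, SMARCD and SMARCE1 genes, 6 of 7 had DPF3a and SMAD4 peaks and 4 had p300 peaks. SMARCC1, a scaffold subunit, had 5 DPF3a peaks, among them a promoter peak of 7.73-fold shared with SMAD4 and an intron 6 peak of 8.59-fold that touched no other list. SMARCC2 and SMARCE1 carried a promoter site of all 3 factors. SMARCD1 and SMARCD2, which encode interchangeable BAF60 subunits, had overlapping promoter peaks of DPF3a and SMAD4 without p300. At SMARCD1 these were 4.64-fold for DPF3a, with 13 reads at the summit, and 10.5-fold for SMAD4, with 77 reads. The same promoter ranked at 9.93% of the DPF3a list and at 90.5% of the SMAD4 list by fold. In the actin module, ACTB had 5 DPF3a and 7 SMAD4 peaks, of which 4 and 5 lay upstream of its canonical start, in the part of the gene covered by a longer isoform.

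The 12 genes grouped as BAF held 38 of the 75 DPF3a peaks, of which 21 were at ARID1B and DPF3. ARID1B and DPF3 have the longest windows of all, 439760 and 290068 bp against a median of 56079 bp. Peaks per length were not counted by group, so the count does not show a concentration at BAF genes. ARID1B is the longest of the genes at 434760 bp. Of its 11 DPF3a peaks 5 touched no other list, and only 1 was at a promoter, that of an internal start in intron 4. BCL7A had 2 DPF3a and 5 SMAD4 peaks and BICRA, an ncBAF gene, 3 and 6, both without p300. BCL11A had a single SMAD4 peak of 17 reads, and BCL11B had 5 SMAD4 peaks of 4.87-fold to 8.48-fold with no DPF3a peak. SS18 and SS18L1, paralogs of which the latter is known from neuronal complexes, both had a promoter site of all 3 factors.

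The gene of the tagged protein itself, DPF3, carried a set of intronic peaks. It spans 285068 bp on chromosome 14, and 9 of its 10 DPF3a summits lay in introns 1, 3, 7 and 8, with the other in the untranslated part of its last exon. Their fold enrichments ran from 6.30 to 15.6 with a median of 8.71, above the 6.19 of all DPF3a peaks at subunit genes. The highest, in intron 1 and 112208 bp from the start, had 51 reads, ranked at 98.8% of the DPF3a list, and touched no other list. The peaks in intron 8, at 11.5-fold, 12.6-fold and 13-fold, were each shared with SMAD4 at 7.27-fold to 8.65-fold. No DPF3a summit lay at a DPF3 promoter, where SMAD4 had 1 peak of 5.03-fold, and no summit of any list lay in a coding exon of DPF3. p300 had no peak in the gene. The paralogs had fewer peaks in much shorter windows, 25420 bp for DPF2 and 23709 bp for DPF1 against 290068 bp for DPF3. The lower counts therefore do not show a lower density of peaks. DPF2, the DPF gene with the widest expression, had 1 promoter peak each of DPF3a (6.19-fold) and SMAD4 (8.17-fold). DPF1 had 2 peaks in every list. The windows of 101 bases around the DPF3 intron 1 and intron 7 summits and the DPF2 promoter summit are printed to show the strongest peak of the family and how these sequences differ. Here and below they are the plus strand of hg38, and each is centred on the summit of the factor named. Where both DPF3a and SMAD4 are named, their peaks overlap and the centre is the DPF3a summit. In DPF3 intron 7 and at the DPF2 promoter the SMAD4 summit lay outside the window. Capitals mark matches to AP-1, RUNX and the other long words searched (an AP-1 match in intron 7 of DPF3, none in the others).
DPF3 intron 1, chr14:72781843-72781943, DPF3a: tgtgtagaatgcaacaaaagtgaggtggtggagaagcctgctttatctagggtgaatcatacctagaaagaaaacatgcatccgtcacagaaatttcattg
DPF3 intron 7, chr14:72686244-72686344, DPF3a and SMAD4: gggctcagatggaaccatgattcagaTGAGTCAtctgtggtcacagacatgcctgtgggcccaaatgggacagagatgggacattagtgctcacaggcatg
DPF2 promoter, chr11:65333612-65333712, DPF3a and SMAD4: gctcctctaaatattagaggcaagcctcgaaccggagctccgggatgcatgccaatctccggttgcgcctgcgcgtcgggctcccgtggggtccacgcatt

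The other very strong peak was in PBRM1, the bromodomain subunit of PBAF. In intron 3, 14902 bp from the start, the DPF3a peak reached 15.0-fold with 116 reads and the SMAD4 peak 14.0-fold with 104 reads, with summits 6 bp apart and ranks of 98.3% in both lists. No p300 peak touched it. At the PBRM1 promoter, which lies within that of the neighbouring gene GNL3, the order of the lists was different: SMAD4 stood at 11.8-fold with 131 reads, DPF3a at 5.70-fold with 21 reads and p300 at 5.19-fold with 29 reads. The intron 3 window is printed because it held the AP-1 word TGAGTCA with its middle 18 bp from the DPF3a and 12 bp from the SMAD4 summit, beside that of ARID1A intron 12, where both factors overlapped at 7.46-fold and 6.25-fold and TGACTCA lay 12 bp from the DPF3a summit. At ARID1A intron 12 the SMAD4 summit lay outside the printed window. Capitals are the AP-1 word.
PBRM1 intron 3, chr3:52670961-52671061, DPF3a and SMAD4: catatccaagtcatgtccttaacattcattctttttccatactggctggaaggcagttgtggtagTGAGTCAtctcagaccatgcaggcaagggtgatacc
ARID1A intron 12, chr1:26771865-26771965, DPF3a and SMAD4: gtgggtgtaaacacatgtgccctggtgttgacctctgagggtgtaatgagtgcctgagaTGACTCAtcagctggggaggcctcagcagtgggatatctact

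**Figure D3:**
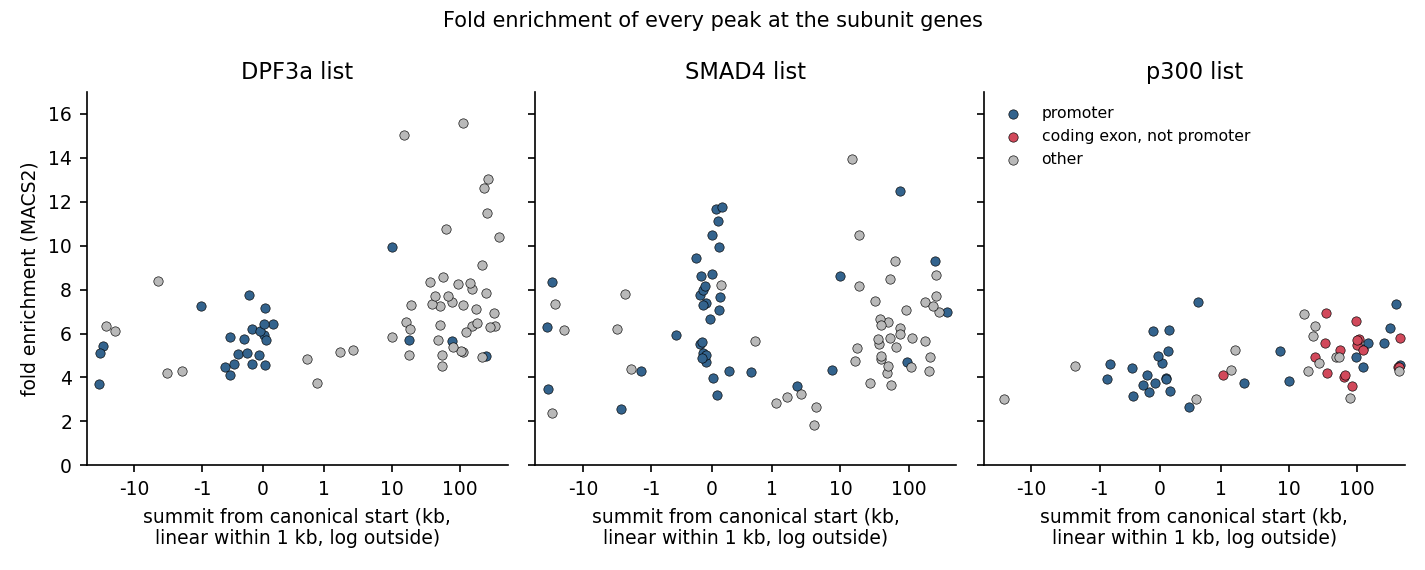
Fold enrichment of every peak at the subunit genes (vertical axis) against the distance of its summit from the canonical start in kb (horizontal axis, linear within 1 kb and logarithmic outside), 1 panel per list. DPF3a peaks over 11-fold all lie over 10 kb downstream of a start, SMAD4 peaks over 11-fold lie both at starts and far from them, and p300 peaks stay under 8-fold.

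AP-1, a dimer of FOS and JUN proteins, binds enhancers in many carcinoma lines. Within 50 bp of the summit, TGACTCA or its reverse complement TGAGTCA was found at 11 of 75 DPF3a summits of the subunit genes (14.7%, 8.39 to 24.4), against 22% of the whole DPF3a list. All 11 lay outside promoters, where they made up 22.4% of 49 summits, while none of the 26 promoter summits held the word. For SMAD4 the counts were 5 of 86 (5.81%, 2.51 to 12.9) against 15.0% of its list, and for p300 1 of 60 against 3.61%. The DPF3a summits with the word were in ARID1A, ARID1B, DPF3, PBRM1, SMARCA4, SMARCC1 and SS18L1, and their median fold, 6.55, was close to the 6.65 of the 38 other summits outside promoters.

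Promoter summits differed in sequence from those elsewhere in the subunit genes. GGGCGG, the SP/KLF word, or its reverse complement was within 50 bp of 34.6% of the 26 DPF3a, 51.3% of the 39 SMAD4 and 27.6% of the 29 p300 promoter summits. Over the whole lists it was at 8.28%, 13.8% and 16.2% of summits, and over all summits of subunit genes at 16%, 32.6% and 18.3%. The median GC content of the 101 bases was 70.8% at DPF3a promoter summits and 46.5% at DPF3a summits elsewhere in the subunit genes. For SMAD4 these values were 71.3% and 53.5%. For p300 they were 66.3% and 58.4%, with coding exons over 2 kb from a start left out. Of the other words, each searched on both strands, CCAAT (NFY) was at 5 DPF3a, 10 SMAD4 and 6 p300 summits, against 11%, 10.3% and 7.52% of the lists. AACCACA (RUNX) was at 2, 4 and 3 summits, against 7.04%, 6.02% and 1.73%. AAGATGGCG (YY1) was at the SMARCD1 SMAD4 and the BICRAL p300 summit (0.347% and 0.285% of those lists), and ACATTCC (TEAD) at 1 DPF3a summit in ARID1B (4.56% of the list). ACCGGAAGT (ETS), GCGCATGCG (NRF1), TGACGTCA (CRE) and GTCTAGAC (the SMAD palindrome) were at no summit of the subunit genes and at most at 0.267% of any list. A word marks letters in a window and not a bound factor, and SP/KLF and NFY words are not capitalised in the sequences.

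The overlap of the lists was counted at the same peaks. With a reciprocal overlap of at least 0.5, 51 of 75 DPF3a peaks (68.0%, 56.8 to 77.5) were shared with SMAD4, against 59.3% of the list, and 18 (24.0%, 15.8 to 34.8) with p300, against 16.6%, so both intervals take in the share of the whole list. Peaks that touched no other list by a single base were 19 of 75 for DPF3a (25.3%, 16.9 to 36.2), against 31.6%, 27 of 86 for SMAD4 (31.4%, 22.6 to 41.8), against 20.9%, and 33 of 60 for p300 (55.0%, 42.5 to 66.9), against 31.3%. The shared DPF3a and SMAD4 summits lay a median of 68 bp apart, 108 bp at promoters and 37 bp outside them, against 49 bp over all shared peaks.

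Sites of all 3 factors, with reciprocal overlap of the DPF3a peak with both others, numbered 16 at 13 genes (41.9%, 26.4 to 59.2), against 29.9% of protein-coding genes and 18 of 50 other remodeller genes. By window length they were at 3 of 8 genes under 30 kb (against 18.7%), where the subunit windows were the longer ones. They were at 8 of 13 of 30 to 100 kb (against 37.7%) and at 2 of 10 over 100 kb (against 43.9%). The share was thus below that of all genes in the longest class. With scores over 100 there were 4 such sites at 3 genes, and with summits within 200 bp in place of overlap 8 at 8 genes. Genes grouped as BAF held them at 7 of 12, as ncBAF at 2 of 3 and as PBAF at 1 of 4. Core genes held them at 2 of 7, actin module genes at 1 of 3 and the ATPase genes at none. Each gene was put in 1 group, although a subunit can belong to several forms. The groups are too small and too loosely drawn to compare the forms. Of the 16 sites 11 were promoters. At BRD9, the bromodomain subunit that defines ncBAF, all 3 summits lay within 63 bp at the promoter it shares with TRIP13, with 6.45-fold for DPF3a, 11.1-fold for SMAD4 and 3.95-fold for p300. At SS18L1, whose promoter also serves PSMA7, a proteasome subunit gene, the folds were 4.12, 8.64 and 3.65. In these and in the PBRM1 promoter the peak cannot be assigned to either gene alone. ARID1A had its site 188 bp upstream of the start with summits within 17 bp, the closest of all, at 4.59-fold, 5.53-fold and 3.33-fold.

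ARID1B had 2 sites of all 3 factors, both far from its canonical start. The stronger was at exon 8 and intron 8, 371688 bp downstream, 155 bp from an annotated internal start. Its DPF3a summit lay in intron 8, 115 bp past the exon, at 10.4-fold with 70 reads, while the SMAD4 and p300 summits lay inside exon 8 at 6.99-fold with 53 reads and 7.36-fold with 33 reads. It was the single site of the 16 where DPF3a had the highest of the 3 folds; SMAD4 was highest at the other 15. ACTB had 2 sites, in intron 1 (3.73-fold, 4.25-fold and 2.64-fold) and 25847 bp upstream of its canonical start (6.35-fold, 7.33-fold and 3.04-fold). BCL7C had a site at its promoter and another 18741 bp downstream of its start, beyond the canonical transcript. The windows around the DPF3a and the p300 summit of the ARID1B site are printed because these factors peaked on either side of the exon border; neither holds a word marked by capitals.
ARID1B intron 8, chr6:157149016-157149116, DPF3a summit: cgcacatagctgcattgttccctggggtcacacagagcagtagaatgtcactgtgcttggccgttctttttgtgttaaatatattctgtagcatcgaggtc
ARID1B exon 8, chr6:157148851-157148951, p300 summit: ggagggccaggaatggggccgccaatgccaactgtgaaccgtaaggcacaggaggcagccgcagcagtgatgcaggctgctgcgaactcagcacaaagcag

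**Figure D4:**
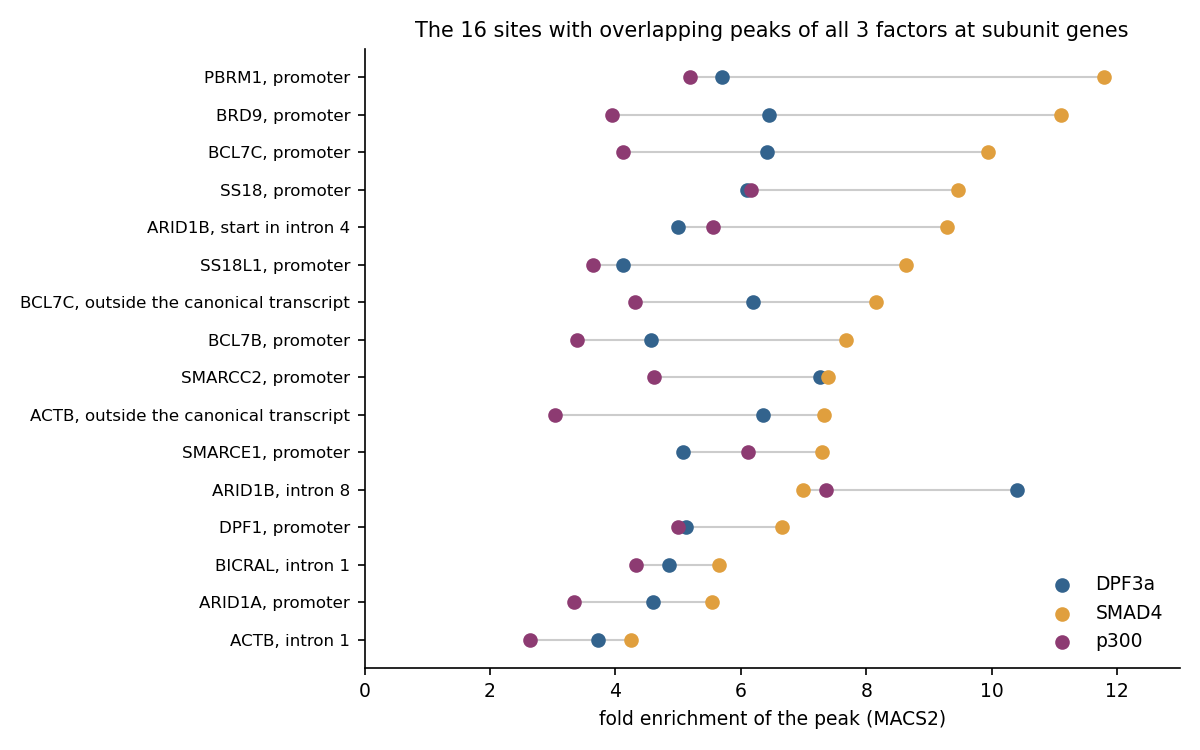
Fold enrichment (horizontal axis) of the DPF3a, SMAD4 and p300 peaks at each of the 16 sites, 1 row per site, ordered by the SMAD4 value. SMAD4 runs from 4.25 to 11.8, DPF3a from 3.73 to 10.4 and p300 from 2.64 to 7.36, and the ARID1B intron 8 row is the one where the DPF3a point is farthest right.

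The p300 list stood apart by its coding exons. Of its 60 summits at subunit genes 26 lay in a coding exon (43.3%, 31.6 to 55.9), against 10.4% of the whole p300 list. The whole list includes peaks far from any gene, and among its 15010 peaks in protein-coding genes or up to 5000 bp upstream of them, counted after the values were seen, the share was 14.1%. For DPF3a it was 2 summits of 75, in exon 14 of ARID1A and exon 1 of BRD9, against 2.40% of its whole list and 3.85% in gene windows, shares that count coding exons of any gene, by which it was 3 of 75. For SMAD4 it was 3 of 86, against 3.90% and 5.90%, in exon 8 of ARID1B, exon 1 of BCL7B and exon 18 of PBRM1. The 26 p300 summits lay in 8 of the 31 genes, with 7 each in ARID1A and ARID1B, 5 in PBRM1, 3 in SMARCA2, and 1 each in ARID2, PHF10, BCL7B and BCL11B. Outside ARID1A, ARID1B and PBRM1, which held 19 of them, 7 of 33 p300 summits were in a coding exon (21.2%, 10.7 to 37.8). That interval takes in the 14.1% of p300 peaks in protein-coding gene windows. The intervals of peak shares, here and below, treat peaks of the same gene as independent, which they may not be.

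These peaks were mostly without the other factors. Of the 26, 23 touched no DPF3a or SMAD4 peak, the exceptions being exon 8 of ARID1B and the first exons of PHF10 and BCL7B. Seen from the other side, of the 33 p300 peaks at subunit genes that touched no other list, 23 had their summit in a coding exon (69.7%, 52.7 to 82.6), against 11.6% of such peaks in the whole list and 18% of those in protein-coding gene windows, and 27 lay within 200 bp of one. The 6 that did not were in ACTL6A, SMARCA2, ARID2 and SMARCD3, with ACTL6A intron 8 the highest at 6.89-fold and 20 reads.

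Far from starts the exon peaks were rare in the genome and recurrent here. Counting only coding-exon summits over 2000 bp from every protein-coding transcript start, p300 had 14 of them in 5 subunit genes (16.1%, 7.09 to 32.6), against 1.58% of protein-coding genes. Of these genes 4 were among the 10 with windows over 100 kb, against 4.10% of protein-coding genes of that length, and 1 among the 13 of 30 to 100 kb, against 1.57%. DPF3a had 1 such gene (against 1.81%) and SMAD4 also 1 (against 2.11%), in ARID1A exon 14 and PBRM1 exon 18, whose summits lay 2 bp and 400 bp from an internal start of a transcript that is not protein-coding. ARID1A and PBRM1 had 4 each, and 38 of the 20033 genes had more; ARID1B had 3, SMARCA2 2 and BCL11B 1. Among the 50 other remodeller genes, CHD2 alone, named after its value was seen, had any, 13 of them. None of the 14 touched a DPF3a or SMAD4 peak, and their median −log10 q was 8.14. Genes were not matched for the number of coding exons, which is 20 in ARID1A and ARID1B, 31 in PBRM1 and 33 in SMARCA2. Of the other 12 p300 exon summits 9 lay inside a promoter window, that of an internal start in ARID1B, ARID2, SMARCA2 and PBRM1 and that of a start near the canonical one in PHF10 and BCL7B.

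The lengths of the exons were then compared. Of 147 coding exons in the 8 genes 26 held a p300 summit, with a median coding length of 234.5 bp against 134 bp for the others of these genes. The summit lay a median of 39 bp from the middle of the exon. A longer exon has more room for a summit, and the distance was taken only for summits inside an exon. No reference was computed for either value, so they do not show centring or a preference for length. In ARID1A, which encodes the DNA-binding subunit that defines BAF, exons 1, 2, 3, 4, 5, 8 and 20 held a summit, among them the longest, of 1731 bp. ARID2 had its summit in exon 15 of 2861 bp and BCL11B in its last exon, of 2042 coding bp. In PBRM1 the exons 3, 13, 22, 23 and 27 had a median of 146 bp against 152 bp for the others, and in PHF10 the exon with the summit had 87 bp against 131 bp. The longest coding exon held a summit in 4 of the 8 genes, and that of ARID1B, of 1791 bp, held none. Whether exon length or base composition has a part in these peaks was not tested.

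**Figure D5:**
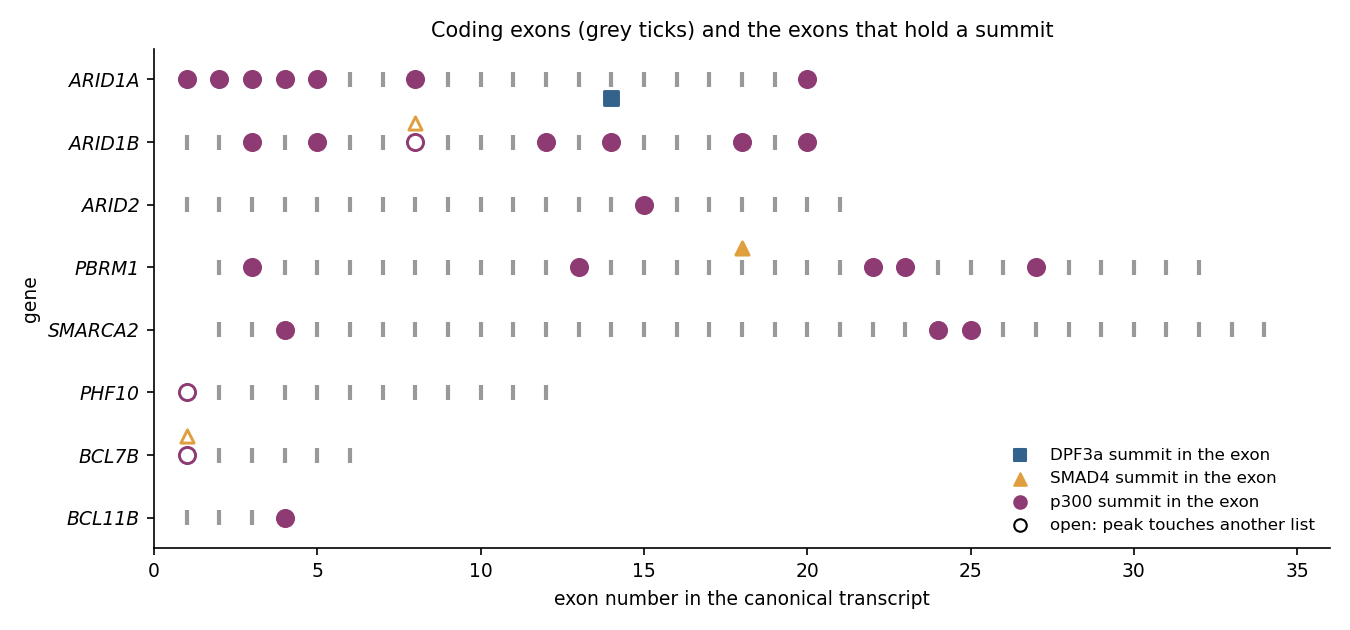
Coding exons (grey ticks) of the 8 genes with a p300 coding-exon summit, by exon number of the canonical transcript; circles mark p300, triangles SMAD4 and squares DPF3a summits in the exon, and open symbols peaks that touch another list. p300 circles stand in 7 exons each of ARID1A and ARID1B, and 23 of the 26 are filled.

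The exon peaks were narrow and of modest height. The 23 that touched no other list had a median of 19 reads at the summit (14 to 49), a local background of 3.04 reads, a fold enrichment of 5.20 and a width of 306 bp. The 27 p300 peaks at subunit genes that touched another list had a median of 29 reads, a background of 5.46 reads, a fold of 4.31 and a width of 702 bp. Among the highest folds of p300 at subunit genes were exon 3 of ARID1A, with 49 reads and 6.94-fold, and exon 4 of BCL11B, with 19 reads and 6.56-fold; that of PHF10 exon 1, 7.44-fold with 24 reads, was next to a SMAD4 promoter peak. The windows of ARID1A exon 3 and PBRM1 exon 22 are printed as p300 exon summits of the highest and of the median number of reads (49 and 19). That of PBRM1 exon 18 is printed for the one SMAD4 peak of this kind. This SMAD4 peak reached 12.5-fold with 71 reads, ranked at 96.5% of the SMAD4 list and touched no other list. It lay near the internal start named above, in the longest coding exon of the gene, 643 bp. Capitals in exon 22 mark the RUNX word.
ARID1A exon 3, chr1:26731273-26731373, p300: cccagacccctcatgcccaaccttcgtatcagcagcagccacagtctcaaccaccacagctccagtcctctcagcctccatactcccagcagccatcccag
PBRM1 exon 22, chr3:52586494-52586594, p300: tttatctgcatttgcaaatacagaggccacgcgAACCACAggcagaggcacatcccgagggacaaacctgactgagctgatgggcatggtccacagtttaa
PBRM1 exon 18, chr3:52609811-52609911, SMAD4: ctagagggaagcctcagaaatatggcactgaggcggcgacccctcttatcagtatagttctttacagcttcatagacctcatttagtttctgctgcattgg

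The gene counts moved with the peak threshold. With peaks of score over 100, that is a −log10 q over 10, DPF3a remained at 22 of the genes against 45.2% of protein-coding genes, SMAD4 at 28 against 68.1%, and p300 at 10 against 17.7%. Above a score of 200, DPF3a was at 7 of 31 (22.6%) against 25.1%, so among its strongest peaks the subunit genes were no longer above all genes, while SMAD4 was still at 28 against 60.2%. Counting p300 peaks only where they touched a DPF3a or SMAD4 peak, a choice made after seeing the exon peaks, 19 genes had one against 49.2%. At the limit of 5000 bp, the outermost summit inside was a DPF3a peak 4500 bp upstream of BICRAL (8.40-fold), and the nearest outside was one 5259 bp upstream of ARID1A (10.5-fold).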

How the data were processed

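ChIP-seq of HA-tagged DPF3a, SMAD4 and p300 in 786-O cells (2 libraries each) was grouped by the factor in the sample titles. The authors trimmed and mapped reads to hg38 with Bowtie2 2.3.5.1, discarded alignments of low quality and duplicates, and ran MACS2 2.2.5 for the peak calls; no control library is named, and how the replicates were combined is not given in the sources used here. The deposited lists hold a score (10 times the −log10 q as a whole number, all over 50), the fold enrichment as a ratio of pileup to local background, the −log10 p-value, the −log10 q-value and the summit.

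Reads at the summit and local background were recovered from the fold and the −log10 p-value, to within 8.6e-04 of the deposited value, which gives the depth behind each peak. Summits were placed on GENCODE 44 with Python 3.11.15 and pandas 2.3.3; overlap code was checked against bedtools 2.31.1 on simulated intervals. The canonical transcript was that tagged by GENCODE, promoters used every transcript start, and motif words were searched on both strands within 50 bp of the summit, in hg38. Wilson intervals (95%, statsmodels 0.14.6) cover counting error only.

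All 31 subunit genes are named, with values for sites of all 3 factors, coding-exon summits and the 5 highest fold percentiles per list; 50 genes of other remodellers are given by counts. The members and lists were chosen with earlier results of these data known. No test was made, since each list was made from both replicates. Tried alternatives were score thresholds, window sizes, transcript starts, overlap rules, lists of equal size, the motif window and p300 peaks touching another list. ChIP signal over the exons of a gene cannot be checked against an input here.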

Additional observations from a re-analysis of the deposited data

How the results depend on the processing

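No paired analysis was possible because the series' design note says that each peak list was made from both replicates of its factor, and for the same reason no replicate could be left out. Of 69 recomputed values 44 stayed within 1.5 times of the reported count, or within its interval, and 25 did not. With scores over 100, the peaks at subunit genes fell to 47 for DPF3a and 16 for p300, the genes with a p300 peak to 10 and with a p300 promoter summit to 7, the sites of all 3 factors to 4 at 3 genes, and the p300 coding-exon summits to 7. With scores over 200, DPF3a kept 12 peaks at 7 genes and 2 promoters, SMAD4 40 peaks, and p300 1 peak at 1 gene and promoter summits at 0. With lists of equal size, DPF3a was at 10 genes and 3 promoters, below the 21 and 18 of p300, which turns their order. With the canonical start only, p300 promoter summits were at 11 genes. For the promoter counts under changed settings no share of all protein-coding genes was computed. With summits within 200 bp in place of overlap, 8 sites of all 3 factors at 8 genes remained. Only over 2000 bp from a start, coding-exon summits numbered 1 for DPF3a, 1 for SMAD4 and 14 for p300. Counting p300 peaks that touch another list, an alternative chosen after seeing the data, left 27 p300 peaks. Within 100 bp of the summit, the AP-1 share was 26.7% for DPF3a (18.0 to 37.6) and 15.1% for SMAD4 (9.05 to 24.2). Their whole lists had 34.2%, which the DPF3a interval takes in, and 25%. At subunit summits outside promoters and coding exons over 2 kb from a start the shares were 38.8% and 27.7%. These settings keep fewer peaks or widen the window by construction. Depth limits the weakest peaks, with 11 reads at the lowest DPF3a summits, and the genes without a peak are genes without one over the score threshold.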

Other observations

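Among the tissue-restricted paralogs, DPF1, a neuronal relative of DPF3, had peaks of all 3 factors in intron 9 as well as at its canonical start. In intron 9 the DPF3a summit lay 9950 bp from that start and 293 bp from an internal one, at 9.95-fold with 43 reads, beside SMAD4 at 8.62-fold with 60 reads and p300 at 3.83-fold with 28 reads. At its canonical start the DPF3a peak was lower, at 5.13-fold with 15 reads. SMARCD3, the BAF60 gene of muscle and heart, had overlapping DPF3a and SMAD4 peaks at an upstream start, 28645 and 28425 bp from the canonical one, at 5.45-fold with 11 reads and 8.33-fold with 36 reads.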
